A study of Mus musculus with 12 samples.

Results

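The collagen chain genes of the mouse were described across the fetal livers and fibroblasts of this study. Members were all entries whose symbol is Col, a number, a and a number, which gave 43 of 23235 entries of the liver values and 44 of 24421 of the fibroblast values; Col26a1 was listed for the fibroblasts only. They comprised 11 fibrillar chains, 6 type IV (basement membrane) chains, 6 type VI chains, 9 fibril-associated chains, 4 transmembrane chains, 3 short-chain network chains, 2 multiplexins and 3 others. The groups were wild-type (WT) and G2A fetal livers at E12.5 of gestation, described in the labels as 3 pairs of littermates, and WT and G2A immortalized mouse embryonic fibroblasts (MEFs), none of them treated. Rpt2, the product of Psmc1, is an ATPase of the proteasome that is tethered to membranes by a myristoyl group on its first glycine, and the G2A knock-in replaces that glycine, which levels per gene cannot check. The labels name 12 samples, 3 per group, and 11 were used: no column matched G2A MEF 3, which was not analysed here. They give no clone, passage or culture for the MEFs, so the p-values there measure only the spread between these samples.

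As background, each collagen molecule is a triple helix of 3 chains that may come from 1 gene or several. Fibrillar collagens such as types I, III and V assemble into the tensile fibres of connective tissue, type IV collagens form the sheet-like network of basement membranes, and type VI collagen forms beaded microfibrils close to cells. In fetal liver these chains come mainly from stellate, portal, mesothelial and endothelial cells, whereas cultured fibroblasts make large amounts of type I collagen and, under growth conditions that activate them, of contractile proteins.

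Liver values were FPKM, with column totals of 792987 to 840762 and unknown read depth. MEF values were normalized reads, from 36415586 to 37695116 gene reads per library. In both tissues 1 library stood apart from its group in the first principal component of all genes tested. In liver, where that component held 37.9% of the variance, G2A liver 3 (7.91) lay nearer to the WT livers (13.3, 23.3 and 21.1) than to the other G2A livers (-30.6 and -34.9). In MEFs, where it held 73.4%, WT MEF 3 (-72.5) lay with the G2A MEFs (-51.5 and -55.2) and far from the other WT MEFs (87.2 and 92.0). Each comparison is therefore given with and without that library. It was picked from these same data for lying towards the other genotype, so leaving it out tends to widen the group difference. Calls made without it are no independent support. Alb, the hepatoblast product albumin, was at 2479.8 FPKM or more in every liver; in the MEFs it had 305, 330 and 275 normalized reads in WT MEF 1, WT MEF 2 and G2A MEF 1 and none in WT MEF 3 and G2A MEF 2. The fibroblast gene Pdgfrb was at 5649 normalized reads or more in every MEF library.

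The first comparison was G2A against WT fetal liver. Collagen RNA made up a larger part of the G2A livers: the summed FPKM of all chains was 796, 545 and 752 in the WT libraries and 1416, 2041 and 1054 in the G2A libraries, or 0.1004%, 0.0678% and 0.0922% against 0.176%, 0.243% and 0.133% of all FPKM. Every G2A liver was above every WT liver. The tested chains of types I, III, V and VI were higher in each G2A liver than in any WT liver. So were the Col4a5 and Col4a6 chains of type IV, and Col18a1, Col16a1, Col9a1 and Col8a2. The common basement membrane chains Col4a1 and Col4a2 were not.

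A test was possible for the 27 of 43 chains with at least 1 FPKM in at least 3 livers. By limma 0 of the 27 chains passed an adjusted p of 0.05 in either direction, where 0.0155% of all 12938 genes tested passed as higher and 0.00773% as lower. At an unadjusted p under 0.05, 13 chains were higher (9.07% of all genes were) and 0 were lower (12.4% of all genes). The libraries of both groups did not overlap for 14 of the 27 chains, all of them higher in G2A, or 51.9% against 11.8% of all genes tested; 0 were lower, against 15.7% of all genes. The log2 fold changes of the 14, on the log2(FPKM + 1) scale, ran from 0.44 to 1.55 with adjusted p from 0.0914 to 0.26. The median over all 27 tested chains was 0.44, beside 0.014 over all genes. Without G2A liver 3, 13 of the 27 chains rose past the threshold, by 0.84 to 1.85, where 12.4% of all genes passed as higher, and 0 passed as lower, where 12% of all genes did. Those 13 were the 14 less Col8a2. With library weights 13 chains were called higher and 1 lower, where 26.1% and 20.7% of all genes were. In a bulk sample a larger number of collagen-making cells and more collagen RNA per cell cannot be told apart.

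**Figure D1:**
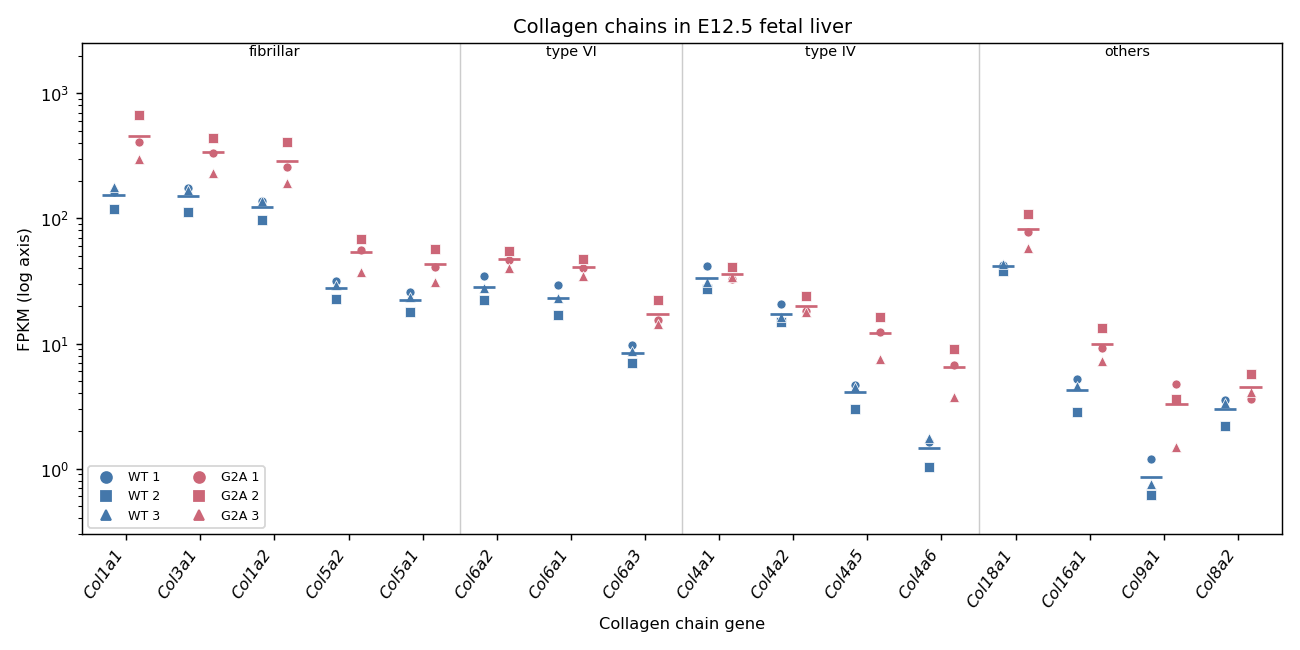
FPKM (log axis) in each WT (blue) and G2A (red) fetal liver for the 14 chains whose groups did not overlap and for Col4a1 and Col4a2; bars are group means and the marker shape gives the replicate number. G2A liver 3 was the lowest G2A library for 13 of the 14 chains and G2A liver 2 the highest for 13, while Col4a1 and Col4a2 overlapped.

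The fibrillar chains were the most abundant collagens of the liver per length, with 68.7% to 72.9% of the collagen FPKM in the WT and 76.1% to 81.0% in the G2A livers. Of 11 chains 8 were tested, 5 did not overlap (all higher) and the median log2 fold change was 0.89. Col1a1, which encodes the chain present in 2 copies in each type I molecule, measured 164, 118 and 177 FPKM in WT and 405, 669 and 299 FPKM in G2A livers. Even the lowest G2A liver, replicate 3, was above the highest WT liver. The log2 fold change was 1.51 ± 0.31 (SE, n = 3 and 3), with an adjusted p of 0.0994, and 1.78 without G2A liver 3 (adjusted p 0.0133). Col1a2, the partner chain of type I, was at 136, 97.2 and 138 FPKM in the WT and at 258, 405 and 193 FPKM in the G2A livers. The groups were again separate, with a log2 fold change of 1.15 ± 0.28 (SE) and an adjusted p of 0.119. Col3a1, the only chain of type III collagen, a homotrimer of pliable tissues, measured 174, 113 and 168 FPKM in WT and 336, 441 and 232 FPKM in G2A livers. It differed by 1.12 ± 0.27 on the log2 scale (SE; adjusted p 0.115), with the same order of libraries as Col1a1 among the G2A livers.

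The type V chains, which nucleate fibrils and limit their diameter, were at lower levels. Col5a1 was at 25.7, 18.0 and 23.6 FPKM in the WT and at 40.9, 57.0 and 30.9 FPKM in the G2A livers. Col5a2 measured 31.4, 22.5 and 29.3 FPKM in WT and 55.9, 68.4 and 37.6 FPKM in G2A livers. Both were separate between the genotypes, by 0.88 ± 0.24 and 0.91 ± 0.23 (SE), with adjusted p of 0.132 and 0.124. The remaining tested fibrillar chains, Col2a1, Col11a1 and Col27a1, which are best known from cartilage, were between 0.637 and 5.94 FPKM and overlapped between the genotypes, with log2 fold changes of -0.39 ± 0.29, -0.10 ± 0.18 and -0.0024 ± 0.15 (SE). Col11a2, Col24a1 and Col5a3 stayed below the filter, with at most 0.864 FPKM in any liver.

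Promoter letters (RefSeq, GRCm38.p6) are shown for Col1a2 and Col3a1, because their effects were among those that differed between liver and MEFs. The set of promoter windows used here held none for Col1a1. Each is the 250 bases before the annotated start, 5′ to 3′ on the gene's strand, chr6:4505368-4505617 and chr1:45311288-45311537, both on the plus strand, with matches to 3 motifs in capitals: the letters CCAAT of the CCAAT box, the letters GGGCGG of the GC box and the letters TATAAA of the TATA box, each searched on both strands, with no overlap between the matches shown.
Col1a2: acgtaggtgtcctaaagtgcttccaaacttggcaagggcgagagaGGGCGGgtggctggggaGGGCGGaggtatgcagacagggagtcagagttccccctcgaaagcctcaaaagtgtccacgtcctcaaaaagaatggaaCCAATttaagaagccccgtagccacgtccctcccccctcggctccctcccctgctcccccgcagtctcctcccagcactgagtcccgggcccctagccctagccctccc
Col3a1: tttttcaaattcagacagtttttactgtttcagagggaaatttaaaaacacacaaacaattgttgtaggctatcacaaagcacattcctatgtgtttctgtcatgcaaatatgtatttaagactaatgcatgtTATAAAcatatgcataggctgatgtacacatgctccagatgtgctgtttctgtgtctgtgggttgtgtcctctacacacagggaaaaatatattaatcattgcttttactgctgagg
The Col1a2 window was 62.0% GC, with the CCAAT box letters beginning 109 bases and the GC box letters beginning 205 and 188 bases before the start. The Col3a1 window was 35.2% GC, with the TATA box letters 117 bases before the start and neither of the other motifs. The CCAAT box letters were in 33.8%, the GC box letters in 32.7% and the TATA box letters in 12.4% of all 32851 windows of this length. Among the 38 windows of the 35 chains that matched the table (9 did not), these motifs were in 13, 22 (57.9%) and 5 windows. A match is a description of the letters only.

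Type VI collagen is built of the alpha 1 and alpha 2 chains and another chain, mostly alpha 3. Its 3 tested chains, Col6a1, Col6a2 and Col6a3, were all separate between the genotypes, with a median log2 fold change of 0.81. Col6a1 was at 29.5, 16.8 and 22.9 FPKM in the WT and at 39.8, 47.2 and 34.5 FPKM in the G2A livers. Col6a2 measured 34.9, 22.1 and 27.8 FPKM in WT and 46.7, 54.9 and 40.5 FPKM in G2A livers. Both were highest in G2A liver 2 and lowest in WT liver 2, and differed by 0.81 ± 0.21 and 0.74 ± 0.18 (SE; adjusted p 0.127 and 0.12). Col6a3, the largest chain of the microfibril, was at 9.72, 6.94 and 8.65 FPKM in the WT and at 15.3, 22.2 and 14.3 FPKM in the G2A livers. Its log2 fold change was 0.94 ± 0.19 (SE), with an adjusted p of 0.0994, and 1.05 without G2A liver 3 (adjusted p 0.0186). The alternative chains Col6a4, Col6a5 and Col6a6 were at 0.438 FPKM or less in every liver and were not tested.

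Among the type IV chains, Col4a1 and Col4a2 overlapped between the genotypes in liver, and Col4a5 and Col4a6 did not. Col4a1, which with Col4a2 forms the network of nearly all basement membranes, measured 41.5, 27.5 and 30.9 FPKM in WT and 32.9, 41.2 and 34.0 FPKM in G2A livers. Col4a2 was at 20.8, 14.9 and 16.3 FPKM in the WT and at 18.3, 24.0 and 17.8 FPKM in the G2A livers. Neither chain separated the genotypes, and the log2 fold changes were 0.12 ± 0.16 and 0.20 ± 0.16 (SE; adjusted p 0.68 and 0.495). Col4a5, part of the specialised networks of kidney, lung and smooth muscle, measured 4.7, 3.0 and 4.49 FPKM in WT and 12.4, 16.3 and 7.54 FPKM in G2A livers. All 3 G2A livers were above all WT livers, by 1.33 ± 0.28 on the log2 scale (SE), with an adjusted p of 0.101, and by 1.61 without G2A liver 3 (adjusted p 0.0106). Col4a6, which joins Col4a5 in one of these networks, was at 1.62, 1.03 and 1.76 FPKM in the WT and at 6.68, 9.1 and 3.77 FPKM in the G2A livers. This chain had the smallest p of all collagens in liver, with a log2 fold change of 1.55 ± 0.29 (SE) and an adjusted p of 0.0914; without G2A liver 3 it was 1.85 (adjusted p 0.00992). Col4a3 and Col4a4 were at 0.181 FPKM or less and were not tested. Since Col4a1 and Col4a2 did not follow the fibrillar chains, type IV chains took 7.12% to 8.65% of the collagen FPKM in the WT livers and 4.45% to 6.003% in the G2A livers.

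The 6 type IV genes lie as head-to-head pairs in the genome (NCBIM37 annotation): Col4a1 (chr8:11198423-11312826, minus strand) and Col4a2 (chr8:11312805-11449287, plus strand) overlap by 22 bases in their first exons, Col4a4 and Col4a3 on chromosome 1 are 71 bases apart, and Col4a6 (chrX:137599946-137908619, minus strand) and Col4a5 (chrX:137909928-138123778, plus strand) are 1308 bases apart. In liver both members of the first pair overlapped between the genotypes and both members of the last pair were separate. The RefSeq windows (GRCm38.p6) of the last pair, chrX:141475169-141475418 on the plus strand for Col4a5 and chrX:141474077-141474326 on the minus strand for Col4a6, are shown because they had the largest differences of the type IV group, again with the letters of the CCAAT box and of the GC box in capitals (the latter reads CCGCCC where it lies on the other strand).
Col4a5: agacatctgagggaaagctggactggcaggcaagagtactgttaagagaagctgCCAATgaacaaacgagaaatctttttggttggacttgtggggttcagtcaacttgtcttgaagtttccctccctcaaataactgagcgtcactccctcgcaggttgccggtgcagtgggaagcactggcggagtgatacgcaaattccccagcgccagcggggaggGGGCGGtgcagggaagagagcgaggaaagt
Col4a6: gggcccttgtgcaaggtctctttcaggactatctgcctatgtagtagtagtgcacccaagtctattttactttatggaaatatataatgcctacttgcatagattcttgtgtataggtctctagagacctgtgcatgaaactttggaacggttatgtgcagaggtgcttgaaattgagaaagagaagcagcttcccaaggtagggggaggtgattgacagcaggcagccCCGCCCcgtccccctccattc
The Col4a5 window had the CCAAT box letters 196 bases and the GC box letters 30 bases before the start. The Col4a6 window had the GC box letters 21 bases before the start, on the other strand, and no match to the other motifs.

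Outside these classes the best separated chain was a multiplexin. Col18a1, a basement membrane proteoglycan of vessels and liver from which endostatin is cut, measured 42.7, 38.3 and 43.4 FPKM in WT and 77.7, 109 and 57.8 FPKM in G2A livers. No G2A liver overlapped the WT livers, and the log2 fold change was 0.91 ± 0.22 (SE), with an adjusted p of 0.114, and 1.13 without G2A liver 3 (adjusted p 0.0111). Col15a1, the other multiplexin, was at 5.04, 1.84 and 2.56 FPKM in the WT and at 3.88, 3.13 and 0.785 FPKM in the G2A livers. These values overlapped and gave -0.25 ± 0.45 (SE). Col16a1, a fibril-associated chain, measured 5.2, 2.84 and 4.6 FPKM in WT and 9.17, 13.3 and 7.2 FPKM in G2A livers. The genotypes were separate for it, by 1.05 ± 0.26 (SE; adjusted p 0.119). Col9a1, a cartilage fibril-associated chain, was at 1.19, 0.618 and 0.756 FPKM in the WT and at 4.75, 3.61 and 1.49 FPKM in the G2A livers. It passed the filter in all 3 G2A and 1 WT liver, was separate, and differed by 1.14 ± 0.32 (SE; adjusted p 0.136). Its partner chains in type IX collagen did not follow. Col9a2 measured 8.51, 4.34 and 5.68 FPKM in WT and 4.88, 4.61 and 3.44 FPKM in G2A livers. Col9a2 differed by -0.40 ± 0.23 and Col9a3 by 0.10 ± 0.24 (SE), both overlapping. Col14a1, the most abundant fibril-associated chain of the WT livers, was at 12.4, 8.96 and 11.8 FPKM in the WT and at 8.42, 9.06 and 10.7 FPKM in the G2A livers. Here too the genotypes overlapped, with -0.21 ± 0.14 (SE), as they did for Col12a1, a chain of tendon and fascia, with 0.029 ± 0.27 (SE).

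Col8a2, a short-chain network former of vessel and corneal membranes, measured 3.52, 2.18 and 3.37 FPKM in WT and 3.58, 5.73 and 4.12 FPKM in G2A livers. The groups did not overlap, although WT liver 1 and G2A liver 1 were close, and the log2 fold change of 0.44 ± 0.20 (SE) had an adjusted p of 0.26. Col8a1, its partner, was at 1.6, 0.615 and 0.875 FPKM in the WT and at 0.3, 0.464 and 0.217 FPKM in the G2A livers. Every G2A liver was below every WT liver for Col8a1, but that chain passed the minimum in 1 library and was not tested. Like the other untested chains, it is left out of the counts of separate chains in either direction. Col10a1, a marker of hypertrophic cartilage, was not tested either and was listed at 0 in 5 livers and at 0.0387 FPKM in G2A liver 1. Col23a1, a transmembrane chain, measured 6.56, 3.42 and 3.62 FPKM in WT and 7.04, 3.47 and 0.887 FPKM in G2A livers. Col13a1, another, was at 3.69, 2.7 and 3.53 FPKM in the WT and at 3.45, 5.56 and 3.07 FPKM in the G2A livers. Col25a1, a neuronal transmembrane chain, measured 3.82, 2.82 and 2.73 FPKM in WT and 3.87, 3.73 and 2.92 FPKM in G2A livers. All of these overlapped, with log2 fold changes of -0.39 ± 0.53, 0.20 ± 0.20 and 0.13 ± 0.15 (SE). In total 16 of 43 chains stayed below the liver filter, and none of these exceeded 1.6 FPKM. Among them were Col7a1, the anchoring fibril chain of skin, at 0.118 to 0.319 FPKM, and Col28a1, at 0.0725 FPKM or less.

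Marker genes of cell types that a fetal liver holds were set beside these results. Of all genes tested, 11.8% were separate and higher and 15.7% separate and lower, the shares against which the counts of these lists stand. Of 12 mesenchyme and mesothelium markers, all tested, 8 had a fold change above 0, 2 were separate and higher and 1 separate and lower; none was at 0, and their summed FPKM was 147 to 202 in WT and 122 to 238 in G2A livers. The 2 higher markers, Upk3b (22.5, 21.6 and 18.0 FPKM in WT, 44.9, 61.1 and 24.9 in G2A livers) and Msln (0.245, 0.179 and 0.638 against 1.39, 4.28 and 1.14 FPKM), are mesothelial. Among the other mesothelial genes of the list, Gpm6a was the separate and lower marker (2.78, 2.47 and 2.46 against 2.34, 2.43 and 2.05 FPKM), and Wt1 overlapped, with a log2 fold change of 0.052. The 5 smooth muscle markers summed to 147 to 288 FPKM in WT and 145 to 280.2 in G2A livers, with 0 separate and higher and 1 lower, the smooth muscle myosin Myh11 (5.68, 1.36 and 2.71 against 1.18, 1.21 and 0.564 FPKM). The 8 endothelium markers summed to 106 to 117 and 123 to 130.5 FPKM, with 3 separate and higher and 0 lower; the 5 epithelium markers to 142 to 161 and 163 to 406 FPKM, with 4 separate and higher and 0 lower. Of 9 cartilage and bone markers 3 were tested, and the list summed to 10.02 to 13.4 and 13.96 to 20.7 FPKM; Hapln1, a cartilage link protein, was at 1.68, 1.15 and 1.21 FPKM in WT and 6.08, 4.82 and 2.98 in G2A livers, while Acan, the defining proteoglycan of cartilage, was at 0.156 FPKM or less. Of the 6 erythroid markers, which summed to 1942 to 2776 FPKM in WT and 1309 to 2529 in G2A livers, 0 had a fold change above 0, 2 were separate and lower (Klf1, a master regulator of red cell genes, by -0.69, and Epor, the erythropoietin receptor, by -0.48), the median was -0.45, and 5 fell past the threshold without G2A liver 3, where 12% of all genes did. Of 5 macrophage markers 2 were separate and higher and 0 lower, with overlapping sums of 56.4 to 73.7 and 62.9 to 71.9 FPKM. Of 6 hepatoblast markers 1 was separate and higher (Dlk1, log2 fold change 0.25) and 0 lower. Of the 6, 3 had a fold change above 0, and the median was -0.042. Without G2A liver 3, 2 of them, Ttr (-0.53) and Apoa1 (-0.52), passed as lower, where 12% of all genes did. Without G2A liver 3, 4 of 12 mesenchyme and mesothelium, 3 of 5 epithelium and 2 of 8 endothelium markers passed as higher. So did 2 of the 3 tested cartilage and bone markers, where 12.4% of all genes passed as higher. In these lists 0 markers passed as lower, and 0 smooth muscle and 0 macrophage markers passed in either direction. The part of each of these cell types in the collagen values was not tested.

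The second comparison was G2A against WT MEFs, where collagen RNA was lower in G2A. Collagen chains held 3.04%, 2.42% and 1.98% of the normalized reads of the WT MEFs and 1.20% and 1.23% of those of the G2A MEFs. The type I, III and VI chains tested, Col5a1, Col4a5, Col12a1, Col18a1, Col27a1, Col8a2 and Col10a1 were lower in both G2A MEFs than in any WT MEF. Col4a3, at low counts, was the single chain on the other side.

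Here 33 of 44 chains had at least 10 normalized reads in at least 2 libraries. Of them 3 (Col22a1, Col14a1 and Col9a3) passed through the WT group alone. Of the 33 tested chains 0 passed an adjusted p of 0.05 in limma in either direction, as 0% of all 13241 genes tested did; the smallest adjusted p of a chain was 0.269. At an unadjusted p under 0.05, 15 chains were lower (7.48% of all genes) and 0 higher (6.9%). Tests of the recovered reads gave 0 chains by edgeR's quasi-likelihood test, where 0% of all 13318 genes passed. At an unadjusted p under 0.05 edgeR had 15 chains lower and 0 higher, where 1040 and 802 of all 13318 genes were. By DESeq2 13 chains were lower and 0 higher, where 4.8% and 2.92% of all genes were called. The libraries did not overlap for 17 chains that were lower and 1 that was higher, where 18% and 18.9% of all genes tested were so separate. Without WT MEF 3, 18 chains fell past the threshold, by 0.53 to 6.25 on the log2(normalized reads + 1) scale, and 3 rose (Col15a1, Col4a3 and Col4a4), where 11.5% and 11.7% of all genes were called. With library weights 18 chains were called lower and 5 higher, where 22.5% and 23.8% of all genes were. WT MEF 3 was below both other WT MEFs for 17 of the 33 chains and above both for 12.

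**Figure D2:**
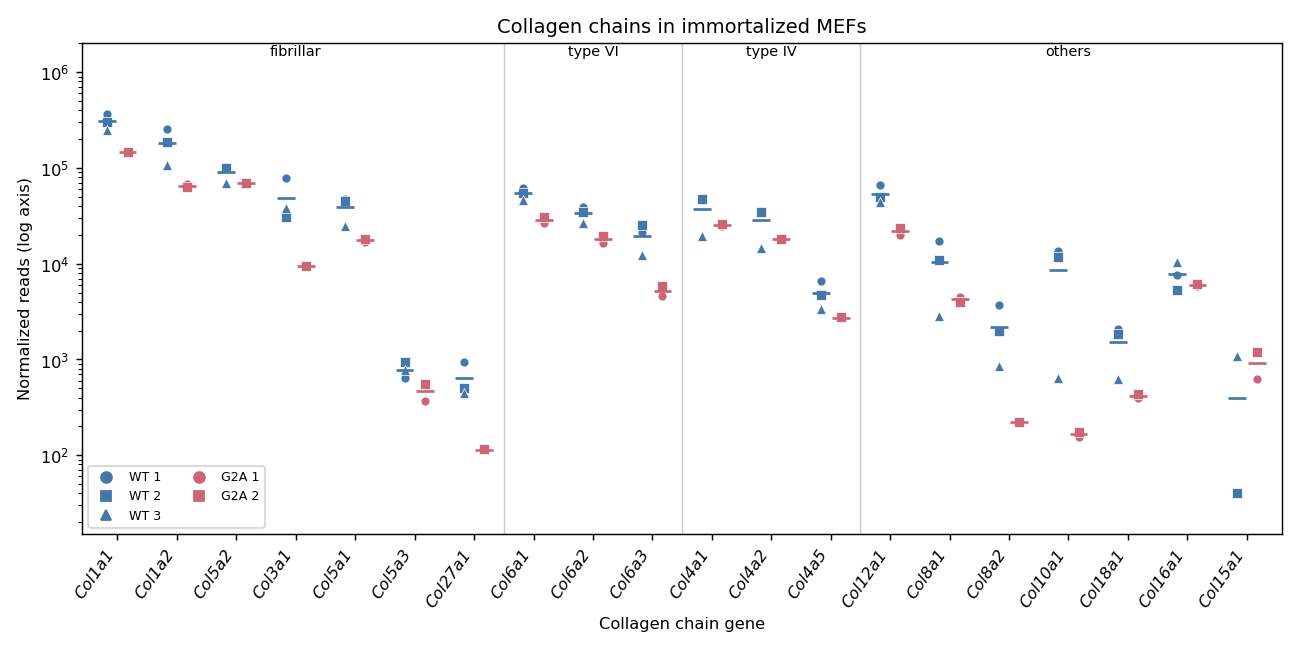
Normalized reads (log axis) in each WT (blue) and G2A (red) MEF library for 20 chains, with bars at group means and the marker shape giving the replicate number; levels of different genes are not per length here. The type I, III and VI chains shown were lower in both G2A MEFs than in any WT MEF. WT MEF 3 (blue triangle) lay below both G2A MEFs for Col4a1, Col4a2, Col5a2 and Col8a1, and between them for Col15a1.

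The 10 tested fibrillar chains all had fold changes below 0 in MEFs, with a median of -1.11 beside 0.015 over all genes; 8 were separate and 7 passed as lower without WT MEF 3. Col1a1 gave 367214, 303500.0 and 251319 normalized reads in WT MEFs against 147919 and 147435 in G2A MEFs. Both G2A libraries lay close together below the whole WT range. The log2 fold change was -1.04 ± 0.33 (SE, n = 3 and 2), with an adjusted p of 0.303, and -1.18 without WT MEF 3 (adjusted p 0.00999). Col1a2 had 257593, 186402 and 106923 normalized reads in the WT and 67699.8 and 63169 in the G2A MEFs. It differed by -1.40 ± 0.42 (SE; adjusted p 0.297), and WT MEF 3 was the lowest of the WT libraries. Col3a1 gave 78884, 30457 and 37765 normalized reads in WT MEFs against 9414 and 9562 in G2A MEFs. Every WT library held over 3 times the G2A reads of this type III chain. It differed by -2.24 ± 0.42 (SE), with an adjusted p of 0.269, and by -2.37 without WT MEF 3 (adjusted p 0.0153).

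Col5a1 had 47084, 45269.6 and 24591 normalized reads in the WT and 16760.3 and 18228 in the G2A MEFs. The G2A libraries were below all WT libraries, by -1.10 ± 0.32 (SE; adjusted p 0.29). Col5a2 gave 102317, 100525 and 69573 normalized reads in WT MEFs against 71217 and 69718 in G2A MEFs. Its partner overlapped, since WT MEF 3 lay just below both G2A libraries; it differed by -0.34 ± 0.26 (SE), with an adjusted p of 0.554, and by -0.53 without WT MEF 3 (adjusted p 0.0308). Col27a1 had 950.0, 507 and 447 normalized reads in the WT and 112 and 117 in the G2A MEFs. This chain had the smallest p of all collagens in MEFs, with a log2 fold change of -2.38 ± 0.37 (SE) and an adjusted p of 0.269, and -2.59 without WT MEF 3 (adjusted p 0.00526). Col5a3, Col11a2 and Col2a1 were also separate and lower, between 16.8 and 931 normalized reads, with log2 fold changes of -0.77 ± 0.26, -1.66 ± 0.40 and -1.12 ± 0.48 (SE). Col11a1 overlapped, with -0.42 ± 0.70 (SE), and Col24a1 was below the filter. Per kilobase of transcript, the fibrillar share of all collagen reads was 69.9% to 72.9% in WT and 68.5% to 70.9% in G2A MEFs, ranges that overlap.

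Type VI chains were separate and lower in all 3 tested cases. Col6a1 gave 62358, 55068 and 45882 normalized reads in WT MEFs against 26427 and 30623 in G2A MEFs. Col6a2 had 39327, 34557 and 26895 normalized reads in the WT and 16617 and 19330.2 in the G2A MEFs. Both had the same order of libraries, with log2 fold changes of -0.92 ± 0.20 and -0.89 ± 0.21 (SE; adjusted p 0.269 and 0.269). Col6a3 gave 21569, 25115 and 12388 normalized reads in WT MEFs against 4557 and 5834 in G2A MEFs. The alpha 3 chain differed most, by -1.87 ± 0.33 (SE; adjusted p 0.269), and by -2.17 without WT MEF 3 (adjusted p 0.00112). Col6a4 and Col6a6 had at most 2.06 normalized reads, and Col6a5 had 32.0 in WT MEF 3 and at most 3.92 elsewhere.

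For Col4a1 and Col4a2 in MEFs the call rested on WT MEF 3. Col4a1 had 45830.2, 47446 and 19468 normalized reads in the WT and 24561 and 25758 in the G2A MEFs. Col4a2 gave 35828, 34436 and 14567 normalized reads in WT MEFs against 18689 and 17911 in G2A MEFs. WT MEF 3 was below both G2A libraries for each of these, and the other WT libraries were above them. The log2 fold changes were -0.47 ± 0.43 and -0.52 ± 0.43 (SE; adjusted p 0.626 and 0.594), and -0.89 and -0.94 without WT MEF 3 (adjusted p 0.00386 and 0.00283). Col4a5 had 6666, 4735 and 3404 normalized reads in the WT and 2679 and 2764 in the G2A MEFs. It was separate and lower, by -0.80 ± 0.29 (SE; adjusted p 0.321). Col4a3 gave 12.4, 11.5 and 34.8 normalized reads in WT MEFs against 54.2 and 46.1 in G2A MEFs. The G2A libraries were above all WT libraries, by 1.49 ± 0.65 (SE; adjusted p 0.373), at counts where few reads carry the value. Col4a4 and Col4a6, at 1.04 to 43.2 normalized reads, overlapped, with 1.64 ± 1.22 and 0.86 ± 0.87 (SE). The class median of 0.19 thus mixed abundant chains below 0 with scarce chains above 0.

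Some of the largest differences lay among the network-forming and fibril-associated chains. Col10a1 had 13601, 11697 and 636 normalized reads in the WT and 155 and 175 in the G2A MEFs. WT MEF 3 held 0.0503 of the mean of the other WT libraries, yet more than either G2A library. The log2 fold change was -4.81 ± 1.39 (SE), with an adjusted p of 0.289, and -6.25 without WT MEF 3 (adjusted p 0.00014). Col8a2 gave 3723, 2000.1 and 847 normalized reads in WT MEFs against 226 and 221 in G2A MEFs. It differed by -3.04 ± 0.61 (SE; adjusted p 0.269), with separate groups. Col8a1 had 17396, 10963 and 2878 normalized reads in the WT and 4541 and 4020.3 in the G2A MEFs. WT MEF 3 was below the G2A libraries for that chain, and the fold change went from -0.94 ± 0.76 (SE; adjusted p 0.586) to -1.69 without it (adjusted p 0.0063). Col12a1 gave 67007, 49302 and 44272 normalized reads in WT MEFs against 19942 and 23481 in G2A MEFs. This fibril-associated chain was separate, by -1.28 ± 0.23 (SE; adjusted p 0.269), and -1.41 without WT MEF 3 (adjusted p 0.00575). Col16a1 had 7579.6, 5310.3 and 10478 normalized reads in the WT and 5827 and 6170.2 in the G2A MEFs. Its genotypes overlapped, with -0.32 ± 0.29 (SE), and Col20a1, at 20.7 to 75.2 normalized reads, was separate and lower by -0.96 ± 0.52 (SE).

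The multiplexins had fold changes of opposite sign in MEFs. Col18a1 gave 2066, 1857 and 625 normalized reads in WT MEFs against 391 and 431 in G2A MEFs. The groups were separate, by -1.70 ± 0.55 (SE; adjusted p 0.304), and -2.25 without WT MEF 3 (adjusted p 0.000718). Col15a1 had 39.2, 40.7 and 1099.6 normalized reads in the WT and 627 and 1190.1 in the G2A MEFs. WT MEF 3 held 27.5 times the mean of the other WT libraries and lay within the G2A range, so the log2 fold change was 2.82 ± 1.56 with all libraries (SE; adjusted p 0.448) and 4.40 without WT MEF 3 (adjusted p 0.00139). The transmembrane chains were scarce: Col17a1 had 12.4 to 28.4 normalized reads, and Col25a1 and Col23a1 0 to 28.2. Col7a1 had 74.2 to 163 and overlapped, with 0.15 ± 0.47 (SE). The 11 of 44 chains below the filter had at most 32.0 normalized reads in any library, and 5 of the 44 chains were at 0 in both G2A MEFs.

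Marker genes of several cell types were read beside the collagens in MEFs, where 18.9% of all genes tested were separate and higher and 18% separate and lower. The 5 smooth muscle markers summed to 202586 to 337099 normalized reads in WT and 147323 to 148880 in G2A MEFs, with 4 separate and lower, 0 separate and higher and none at 0; Acta2, smooth muscle actin, differed by -1.07 on the log2 scale. Of 12 mesenchyme and mesothelium markers 8 were tested, 4 of them with a fold change above 0, and the median was 0.014. Of the tested markers 3 were separate and lower: Lhx2 (-3.55), the mesothelial Upk3b (-2.58, at 27.3 normalized reads or fewer) and the fibroblast receptor Pdgfrb (-1.08). The mesothelial Msln was the 1 marker that was separate and higher (2.24). Pdgfra, also on the list, overlapped, with 0.73. Tcf21 and Gpm6a were at 0 in all libraries. Of 5 epithelium markers, all tested, 3 were separate and higher and 1 lower, and they summed to 1361 to 2019 normalized reads in WT and 3574 to 3659.5 in G2A MEFs. Among these, the keratin Krt18 was at 0, 3.13 and 25.4 against 169 and 204 reads. The keratin Krt19, which made up most of each sum, was at 1309.6, 1953 and 1515 against 3439 and 3335 (log2 fold change 1.11). The lower marker was Cdh1, at 42.2, 43.8 and 172 against 15.8 and 15.7 reads (-2.05). Epcam overlapped, with 0.79. The 6 hepatoblast markers summed to 592 to 32016 normalized reads in WT MEFs, the highest in WT MEF 3, almost all of it Dlk1, and to 4484 and 7649 in G2A MEFs. The part of these cell types in the collagen values was not tested.

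The third comparison was between tissues: whether the G2A effect on a chain differed between liver and MEFs. For the 23 chains tested in both, the difference of both log2 fold changes was taken over its combined standard error. It passed an adjusted p of 0.05 for 9 chains, each with a more positive effect in liver, where 1.34% of all 10818 genes tested passed in that direction; 0 passed in the other, where 0.869% of all genes did, with 0 at an unadjusted p under 0.05. The 9 chains were Col1a1, Col1a2, Col3a1, Col5a1 and Col27a1 of the fibrillar class, Col6a1, Col6a2 and Col6a3 of type VI, and Col4a5 of type IV. The largest was Col3a1, with a difference of 3.36 ± 0.50 (SE; adjusted p 0.0297), and the smallest p was that of Col6a3, with 2.81 ± 0.38 (SE; adjusted p 0.0283). Col1a1 and Col1a2 differed by 2.56 ± 0.45 and 2.55 ± 0.51 (SE; adjusted p 0.0337 and 0.0424). For Col27a1, with 2.38 ± 0.40 (SE; adjusted p 0.0419), the liver effect was near 0 and the MEF effect made the difference. Of the 14 chains separate and higher in G2A liver, 13 were tested in MEFs. There 10 of those were separate and lower, where 18% of all genes tested were, whatever their liver effect. The count rests on single libraries: 0 chains passed without either G2A MEF library, where the lone G2A sample is assumed to vary like the WT libraries, 1 without WT MEF 1, 2 without any of WT liver 3 and G2A livers 1 and 2, and 4 without WT liver 2, where 0.0185% to 0.397% of all genes passed as more positive in liver. Without G2A liver 3, 14 chains passed, all more positive in liver, where 5.09% of all genes passed in that direction and 3.67% in the other. Without WT MEF 3, 17 passed, 16 more positive and 1 more negative in liver, where 14.6% and 15.5% of all genes did.

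**Figure D3:**
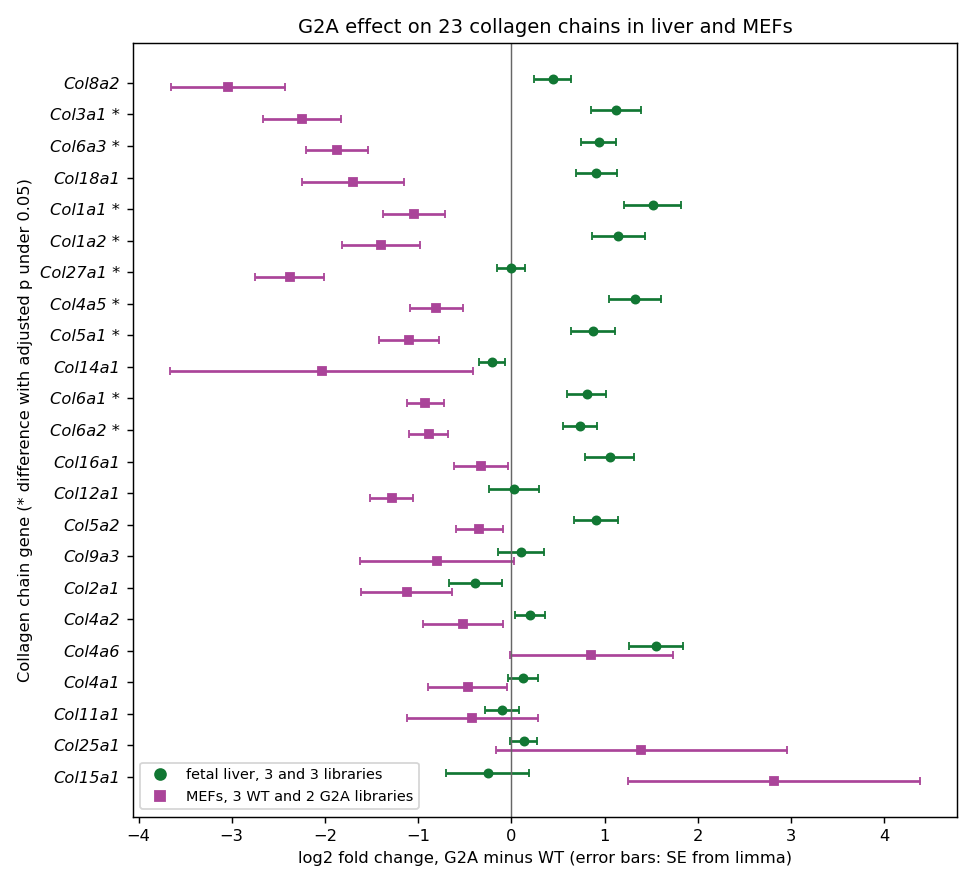
Log2 fold changes of G2A against WT with their standard errors (limma) in fetal liver (green circles) and MEFs (purple squares) for the 23 chains tested in both, ordered by the difference. For the 9 chains with an asterisk the difference passed the threshold; the liver effects of all of these but Col27a1 lie above 0 and their MEF effects below 0.

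For the other type IV chains the difference did not pass. Col4a1 and Col4a2 differed between the tissues by 0.59 ± 0.46 and 0.72 ± 0.46 (SE; adjusted p 0.465 and 0.377). Col4a6, higher in G2A liver and scarce in MEFs, gave 0.70 ± 0.92 (SE; adjusted p 0.682). Col8a2 and Col18a1 had differences of 3.49 ± 0.64 and 2.61 ± 0.59 (SE), with adjusted p of 0.0539 and 0.0682.

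Ratios between chains were compared library by library, as FPKM in liver and as normalized reads per kilobase of the longest annotated transcript in MEFs. They are a description, without a test. Col3a1 to Col1a1 and Col4a5 to Col4a1 set chains of different collagens or networks side by side, not chains of one molecule. Type I collagen is assembled mostly from 2 Col1a1 chains and 1 Col1a2 chain. The ratio of Col1a1 to Col1a2 was 1.20, 1.22 and 1.28 in the WT and 1.57, 1.65 and 1.55 in the G2A livers, with every G2A liver, also replicate 3, above the WT livers. In MEFs it was 1.29, 1.47 and 2.12 in the WT and 1.97 and 2.1 in the G2A libraries, with WT MEF 3 at the G2A level. The ratio of Col6a1 to Col6a2 was 0.846, 0.761 and 0.825 in the WT and 0.852, 0.86 and 0.852 in the G2A livers, and 1.9, 1.91 and 2.04 against 1.91 and 1.9 in MEFs; every G2A liver was above the WT livers for this ratio too, though the nearest livers were at 0.846 and 0.852. The head-to-head pair Col4a1 to Col4a2 stood at 2.0, 1.84 and 1.9 in the WT and 1.8, 1.72 and 1.91 in the G2A livers. In MEFs it stood at 1.25, 1.34 and 1.3 in the WT and 1.28 and 1.4 in the G2A libraries, so the genotypes overlapped in both tissues. By contrast Col4a5 to Col4a1 was 0.113, 0.109 and 0.145 in the WT and 0.377, 0.396 and 0.222 in the G2A livers, and 0.147, 0.101 and 0.177 against 0.11 and 0.109 in MEFs. The ratio of Col3a1 to Col1a1 was 1.06, 0.951 and 0.953 in the WT and 0.83, 0.66 and 0.774 in the G2A livers, and 0.229, 0.107 and 0.16 against 0.0678 and 0.0691 in MEFs, so the G2A libraries were lower in both tissues. Col4a5 to Col4a6 was 2.9, 2.9 and 2.56 in the WT and 1.86, 1.79 and 2.0 in the G2A livers, again separate; in MEFs Col4a6 was too scarce for this ratio. Col6a3 to Col6a1 overlapped in liver, at 0.329, 0.413 and 0.377 against 0.385, 0.47 and 0.414, and was separate in MEFs, at 0.158, 0.208 and 0.123 against 0.0785 and 0.0868. Col5a2 to Col5a1 overlapped in liver, at 1.22, 1.25 and 1.24 against 1.37, 1.2 and 1.22, and was higher in both G2A MEFs, at 2.76, 2.82 and 3.59 against 5.39 and 4.85.

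**Figure D4:**
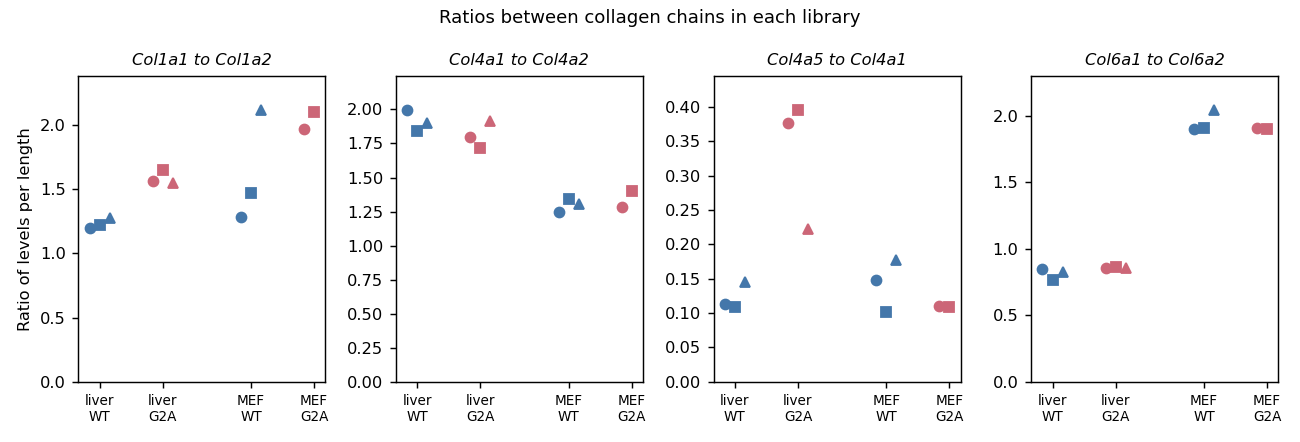
Ratio of 2 chains' levels per length in each library, for liver (FPKM) and MEFs (normalized reads per kilobase); circles, squares and triangles are replicates 1, 2 and 3, blue is WT and red is G2A. Col1a1 to Col1a2 and Col4a5 to Col4a1 were higher in every G2A liver than in any WT liver, and so was Col6a1 to Col6a2, over a narrow range of 0.761 to 0.86 in liver.

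Enzymes and chaperones that act on collagen chains were taken as 4 lists. Over all genes tested, 11.8% were separate and higher and 15.7% separate and lower in liver, and 18.9% and 18% in MEFs; these shares stand behind each count of the lists. None of their members passed an adjusted p of 0.05 in limma in liver or in MEFs. Of 15 genes of prolyl and lysyl hydroxylation and glycosylation, 14 were tested in liver, 8 were separate and higher and 0 lower, 7 had an unadjusted p under 0.05, all higher (9.07% of all genes), and 10 rose past the threshold without G2A liver 3 (12.4% of all genes). The smallest p was that of P4ha2, a catalytic subunit of prolyl 4-hydroxylase, at 7.17, 6.22 and 7.29 FPKM in WT and 29.2, 47.7 and 18.0 in G2A livers. Its log2 fold change was 1.94 and its adjusted p 0.0902. P4ha1, the other main catalytic subunit, stood at 17.6, 19.3 and 17.6 FPKM against 40.7, 48.0 and 26.5, with a log2 fold change of 1.0 and an adjusted p of 0.101. In MEFs 14 of that list were tested, 3 were separate and higher, a share near that of all genes, and 5 lower. The 2 with the smallest p were P3h3, a prolyl 3-hydroxylase (-1.11, adjusted p 0.279), and Plod3, a lysyl hydroxylase and glycosyltransferase (-0.37, adjusted p 0.311).

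Of 10 collagen chaperones and export factors, 9 were tested in liver, 5 were separate and higher and 0 lower, and 5 had an unadjusted p under 0.05, all higher, where 9.07% of all genes did. Sec23a, a coat subunit of vesicles leaving the endoplasmic reticulum, differed by 0.30 (adjusted p 0.113) and Fkbp14, a prolyl isomerase, by 0.59 (adjusted p 0.168). Serpinh1, the collagen-specific chaperone HSP47, was at 253, 208 and 213 FPKM in WT and 343, 439.7 and 219.6 in G2A livers, where G2A liver 3 overlapped the WT range. Mia3, a receptor for procollagen export, was listed at 0 in all 6 livers. In MEFs all 10 were tested, 4 were separate and lower and 0 higher. Serpinh1 was at 58681, 51900.4 and 41089.8 normalized reads in WT and 32933 and 32771 in G2A MEFs, a difference of -0.61 (adjusted p 0.311), and Creb3l1, a transcription factor of secretory capacity, gave -0.52 (adjusted p 0.348).

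Of 13 procollagen processing and crosslinking genes, 10 were tested in liver, with 3 separate and higher and 1 lower. Pcolce, which enhances removal of the C-propeptide, was at 32.9, 25.3 and 33.9 FPKM in WT and 68.1, 82.1 and 44.6 in G2A livers (1.02, adjusted p 0.113), and Adamts2, which removes the N-propeptide, differed by 0.59 (adjusted p 0.119). In MEFs 12 were tested, with 1 separate and higher, the lysyl oxidase homologue Loxl4 (0.85, adjusted p 0.316), and 3 lower, among them Adamts2 (-1.45, adjusted p 0.348). Of 10 receptors and uptake genes, 7 were tested in liver and 2 were separate and higher. Itgb1, the shared beta chain of the collagen integrins, differed by 0.37 (adjusted p 0.13), and Mrc2, a collagen uptake receptor that overlapped, by 0.77 (adjusted p 0.183). In MEFs 8 were tested and 3 were separate and lower: the collagen receptor Ddr2 by -1.01, and the integrin chains Itga11 by -1.75 and Itga1 by -2.71, each with an adjusted p of 0.269.

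Position gave further pairs (NCBIM37). Col3a1 (chr1:45368383-45406551, plus strand) and Col5a2 (chr1:45431166-45560127, minus strand) face each other 24614 bases apart; their log2 fold changes were 1.12 and 0.91 in liver and -2.24 and -0.34 in MEFs. Col6a2 and Col6a1 follow each other on the minus strand of chromosome 10, 85161 bases apart (chr10:76058507-76086375 and chr10:76171537-76188913). Their fold changes were 0.74 and 0.81 in liver and -0.89 and -0.92 in MEFs. Col1a1 (chr11:94797538-94814356, plus strand) and Col1a2 (chr6:4454814-4491543, plus strand) lie on different chromosomes and gave 1.51 and 1.15 in liver and -1.04 and -1.40 in MEFs. Some chains share exon bases with another annotated gene, such as Col1a1 with Gm17329 (109 bases) and Col9a3 with Tcfl5 (234 bases), and whether counting used strand is not given in the sources used here, so reads of such stretches are uncertain.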

How the data were processed

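Total RNA was taken with Trizol and sequenced by BGI; the labels' protocols give trimming to 50 bp and TopHat 2.1.1 alignment against mm9. TopHat2 2.1.1, Cufflinks 2.2.1, mm9 and mm10 appear in the submitters' processing notes. FPKM were deposited by the authors for liver; the header names no unit, which was read from the named tool and the values. The MEF values are a normalized signal per gene deposited by the authors: after rescaling by 1 size factor per library (0.958 to 1.06) 100% of values were whole reads within 0.01. How reads were counted, and whether by strand, is not given in the sources used here.

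Genotypes were compared in each tissue by limma 3.58.1 (R 4.3.3; two-sided moderated test with a variance trend) on log2(value + 1). P-values were adjusted by Benjamini-Hochberg over all 12938 liver genes (at least 1 FPKM in at least 3 libraries) or 13241 MEF genes (at least 10 normalized reads in at least 2 libraries), with a threshold of 0.05. The difference between tissues divided the difference of fold changes by its standard error (Satterthwaite) over 10818 genes. This test called slightly too many genes on simulated data. Those data had independent noise per gene and no library that stood apart, so they do not give the error rate here. edgeR 4.0.16 and DESeq2 1.42.0 on the recovered MEF reads were alternatives. A fold change on the log2(value + 1) scale understates that of low genes. The libraries of 2 groups were called separate when they did not overlap. No per-library MEF pair was a duplicate. Depth is unknown for FPKM, so no counting interval is given.

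Values in every library are given for chains past the threshold, the 3 chains of each class with the highest level per length, and the 5 chains with the smallest p where fewer passed; of the other lists, the 2 genes with the smallest p. The members, lists and rules were chosen with earlier results of these data known. Gene positions come from an annotation of NCBIM37, promoter windows from RefSeq on GRCm38.p6.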

Additional observations from a re-analysis of the deposited data

Results flagged for a closer look

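For 9 chains the G2A effects in liver and MEFs differed by a test of the difference itself (limma fits of each tissue, adjusted p under 0.05). The differences of the log2 fold changes, liver minus MEFs, were 3.36 for Col3a1, 2.81 for Col6a3, 2.56 for Col1a1, 2.55 for Col1a2, 2.38 for Col27a1, 2.13 for Col4a5, 1.98 for Col5a1, 1.73 for Col6a1 and 1.63 for Col6a2. Tissue, unit and upstream handling change together between the 2 sets of values and cannot be told apart.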

How the results depend on the processing

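Leaving out single libraries moved the number of chains past the threshold from 0 to 13 higher in liver (13 without G2A liver 3), left 0 lower in liver, and gave 0 to 3 higher and 0 to 18 lower in MEFs (3 and 18 without WT MEF 3) and 0 to 17 for the difference between tissues. With library weights the counts were 13 higher and 1 lower in liver, 5 higher and 18 lower in MEFs, and 18 for the difference (16 more positive and 2 more negative in liver, where 29.6% and 27.3% of all genes were called). DESeq2 gave 13 lower in MEFs. For the difference, no low-value filter left 3 chains, where 0.164% of all genes passed as more positive in liver. A fit without the variance trend left 1 chain, where 0.148% of all genes did. In the main fit these were 9 chains and 1.34% of all genes. The causes were not tested.

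The labels describe littermate pairs of livers but do not say that the numbers mark them, and give no pairing of MEFs. The correlations of the deviations of same-numbered samples were 0.18, -0.10 and 0.10 in liver and 0.13 and -0.033 in MEFs, and not every liver correlated best with its own number. With the replicate number as a block, 0 chains passed in liver in either direction, and 3 higher and 19 lower in MEFs (14.3% and 13.7% of all genes), where the block leaves WT MEF 3 without a partner.

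The median fold change of the type IV chains in MEFs went from 0.19 to -0.52 under a filter of 50 normalized reads, which removes the scarce chains. A pseudocount of 0.1, median-ratio scaling and quantile normalization kept the direction and the call of each of the 17 liver and 21 MEF chains followed. Under quantile normalization 1 of the 9 differences no longer passed. Read depth limits what can be said of chains below about 50 normalized reads, and is unknown for FPKM. G2A MEF 3 was not analysed here.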
